A study of Mus musculus with 6 samples.

Results

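Dermal condensate fibroblasts are the mesenchymal cells that gather under a hair placode and later become the dermal papilla. Members were chosen by a gate on counts of unique molecular identifiers (UMIs, which mark single captured transcripts) in each cell. A cell needed at least 500 detected genes and at most 10% mitochondrial UMIs. It needed at least 15 UMIs of the fibrillar collagen genes Col1a1, Col1a2 and Col3a1 together, at most 3 of the keratins Krt5 and Krt14, and 0 of the endothelial genes Pecam1 and Cdh5. It also needed at least 1 UMI of the transcription factor genes Sox2, Sox18 and Foxd1, and at least 2 of Gal, Cyp26b1, Ptch1, Cdkn1a and Bmp4 detected. The gate gave 311 members among 40653 kept cells, of which 23187 passed the collagen, keratin and endothelial limits. The 22876 gated cells that were not members are called the other fibroblasts.

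A condensate forms when Wnt signals in the upper dermis and FGF from the placode lead fibroblasts to cluster, slow their division and change their transcription. Beta-catenin, encoded by Ctnnb1, carries the canonical Wnt signal to the nucleus, where it acts with the DNA-binding partners Lef1 and the Tcf proteins. The placode sends Sonic hedgehog to the condensate, whose cells answer through the receptor Ptch1 and the Gli factors, and the condensate sends BMP, FGF and other ligands back.

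Skin of the back and flank of CD1 mouse embryos was dissociated, sorted with the viability dye DAPI and sequenced cell by cell in droplets, with reads from the 3′ ends of transcripts. Each library pooled 3 to 4 embryos. The loss-of-function (LOF) embryos carried PDGFRαCreER(Lo), a tamoxifen-inducible Cre driven by a receptor gene of dermal fibroblasts, with floxed beta-catenin alleles and the mTmG reporter, which switches from membrane tdTomato to membrane eGFP on recombination. Embryonic days are written E. Their labels give tamoxifen by gavage at E11.5, as a single dose but at 2 dose levels that are not assigned to samples, and there was 1 LOF library at E14.5 and 1 at E13.5. Controls, labelled WT, had 2 libraries at E14.5 and 2 at E13.5, and the same treatment text stands on their labels but names only the LOF genotype. Genotype, drug and library therefore cannot be told apart in the LOF comparisons. P-values measure only the spread between these libraries or, with library as a block, the spread of differences within them. The edgeR tests below share this spread across genes, so very small p-values do not rest on a gene's few libraries alone. Cells were never used as replicates.

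The libraries held 53461986 to 86446575 UMIs each. Among other fibroblasts, cells with an eGFP UMI made up 58.3% in the LOF library at E14.5 and 47.5% at E13.5. The same share was 5.83% and 3.40% in control replicate 1 at these stages, but 45.4% and 54.3% in control replicate 2, although both its libraries are labelled WT. Esr1, whose hormone-binding domain is part of CreER, was read as CPM, a gene's UMIs scaled to a sum of 1e+06 over the cells in question. In other fibroblasts it was 49.7 CPM for E14.5 LOF and 66.3 CPM for E13.5 LOF, against 4.34 and 2.22 CPM for E14.5 control replicates 1 and 2. Gm42418, which overlaps a ribosomal RNA sequence, reached 1108 CPM in these cells of E14.5 LOF and 1661 CPM in E14.5 control replicate 1, against 73.7 CPM in E14.5 control replicate 2. Counts of called genes are therefore also given without control replicate 2 for members against other fibroblasts and for members with against without Sox2. Pairs of libraries shared 45 to 103 cell barcodes.

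Members were found almost entirely at E14.5, where 304 of the 311 lay. In E14.5 LOF 89 of 4551 gated fibroblasts were members, a share of 1.96% (exact binomial 95% interval 1.57 to 2.40). In E14.5 control replicates 1 and 2 the shares were 4.90% (165 of 3370, interval 4.19 to 5.68) and 1.72% (50 of 2907, interval 1.28 to 2.26). The LOF share thus lay between those of the controls.

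At E13.5 the LOF library held 0 of 4459, which allows a share of up to 0.0673% (3 counts of the total; the exact binomial upper limit is 0.0827%), and control replicates 1 and 2 held 6 of 4594 (0.131%) and 1 of 3306 (0.0302%). Controls averaged 3.31% ± 2.25 at E14.5 and 0.0804% ± 0.0710 at E13.5 (SD, n = 2 each). The groups did not overlap, but an exact two-sided permutation test of 2 libraries against 2 gave p = 0.333, the smallest it allows. Intervals cover counting error only.

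**Figure D1:**
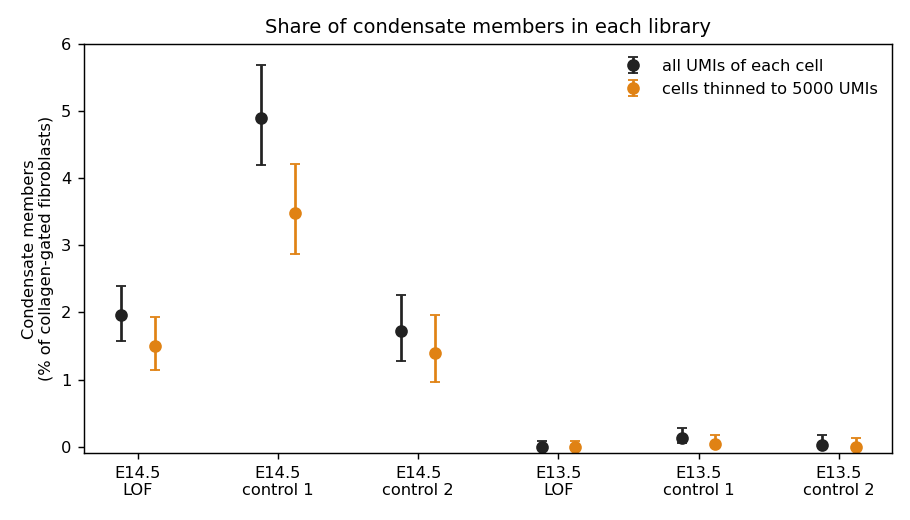
Share of condensate members among collagen-gated fibroblasts of each library, in percent, from all UMIs (black) and after thinning each cell to 5000 UMIs (orange). Points are single libraries, bars are exact binomial 95% intervals; the 3 E14.5 libraries sit at 1.72% to 4.90% and the E13.5 libraries at or under 0.131%.

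The gate reads sparse counts, so it finds fewer members in shallower cells. After each cell was thinned to 5000 UMIs and shallower cells were left out, the shares were 1.499% in E14.5 LOF, 3.49% and 1.40% in the E14.5 controls, and 0.0464% or less in every E13.5 library. Members were not the deepest cells: their median was 7651 UMIs for E14.5 LOF, with 9059 and 7238 UMIs for members of control replicates 1 and 2, against 7821, 10459 and 7371 in other fibroblasts of these libraries. The 2 last conditions of the gate were also counted in keratinocyte-gated and macrophage-gated cells. Among keratinocyte-gated cells of E14.5 LOF and of E14.5 control replicates 1 and 2, 1 of 1463, 0 of 992 and 1 of 732 met them. Their median depths were 10865, 14182.5 and 10335.5 UMIs. For 0 of 992, 3 counts of the total are 0.302% and the exact binomial upper limit is 0.371%. Among macrophage-gated cells of these libraries the counts were 5 of 381 (1.31%, interval 0.427 to 3.04), 1 of 231 (0.433%) and 1 of 259 (0.386%), at median depths of 8745, 11009 and 10780 UMIs. The LOF interval in macrophage-gated cells overlaps that of the LOF member share. The macrophage gate set no collagen limit, so doublets with fibroblasts and members themselves could enter it. Its counts therefore need not come from cells that lack the program.

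The 8 condensate genes of the gate describe how members vary among themselves, and their values carry no test because they chose the cells. Ptch1, which encodes the receptor for hedgehog ligands and is itself induced by them, was detected in 273 of the 304 members at E14.5 (89.8%). Foxd1, a forkhead factor gene, was detected in 241 (79.3%), Sox2, an HMG-box factor gene of early condensates, in 164 (53.9%), and Sox18, another HMG-box factor gene, in 97 (31.9%). Cyp26b1, which degrades retinoic acid, was found in 215, Cdkn1a, a cell cycle inhibitor gene, in 210, the ligand gene Bmp4 in 223, and Gal, which encodes the neuropeptide galanin, in 69. Foxd1 alone admitted 104 members and Sox2 alone 37, while 50 had UMIs of all 3 factors.

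Detection of the same genes differed between libraries. Foxd1 was detected in 83.1% and 86.7% of members of E14.5 LOF and E14.5 control replicate 1 and in 48.0% of control replicate 2. Gal ran the other way, at 25.8% and 13.9% in that pair and 46.0% in control replicate 2. Bmp4 was detected in 60.7% of LOF members, against 75.8% and 88.0% of members in control replicates 1 and 2. Among other fibroblasts Sox2, Sox18, Foxd1 and Gal were each found in under 1% of cells of every E14.5 library.

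**Figure D2:**
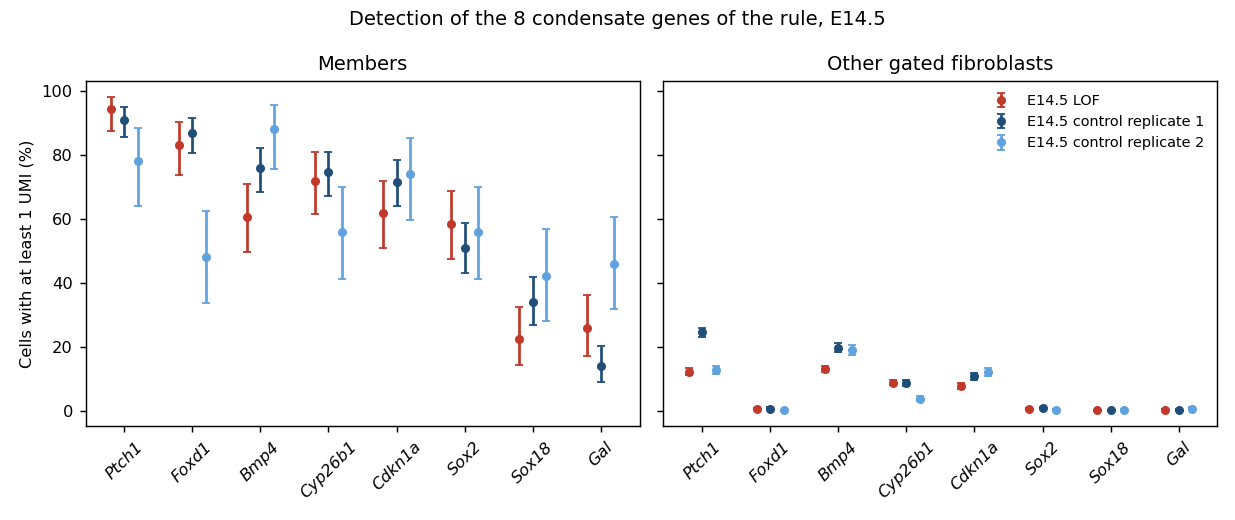
Percent of members (left) and of other gated fibroblasts (right) with at least 1 UMI of each condensate gene of the gate, by E14.5 library, with exact binomial 95% intervals. Ptch1 and Foxd1 lead in E14.5 LOF and E14.5 control replicate 1, and Foxd1 falls to 48.0% in control replicate 2, where Gal reaches 46.0%.

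Cells near the limits showed how the gate divides a range. Members with exactly 2 of the 5 genes numbered 29, 36 and 13 in E14.5 LOF and E14.5 control replicates 1 and 2, and fibroblasts with a factor UMI but only 1 of the 5 genes numbered 29, 30 and 12. A larger set, 344, 455 and 260 cells, had 2 or more of the 5 genes but no factor UMI. Cd24a, a surface sialoglycoprotein gene outside the gate, was at 249, 518 and 736 CPM just inside, and at 127, 310.5 and 645 CPM just outside with a factor and 183, 236 and 378 CPM just outside without one. In members with 3 or more of the 5 genes it was at 576, 863 and 1381 CPM. In control replicate 2, 21 of the 50 members had only 15 to 20 collagen UMIs, against 8 of 89 in LOF and 12 of 165 in control replicate 1.

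Genes outside the gate were compared between members and other fibroblasts of the same E14.5 library, with UMIs summed over cells. Of 13439 genes tested, 1202 (8.94%) were higher and 1842 (13.7%) lower in members at an adjusted p under 0.05 (edgeR quasi-likelihood test with library as a block, Benjamini-Hochberg adjustment, 3 libraries). Leaving out control replicate 1, which holds 165 of the 304 members, lowered the calls to 528 higher and 819 lower, and without control replicate 2 there were 1136 and 1503. Of the 26 condensate genes listed outside the gate, 18 were higher and 4 lower, with a median log2 fold change of 1.39, against −0.06 over all genes tested. All fold changes below are members over other fibroblasts on the log2 scale with their standard error (SE), and adjusted p-values are from this test. Counts of listed genes called in this comparison are to be read beside the 8.94% higher and 13.7% lower over all genes tested.

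Large rises were ranked among genes averaging 5 or more in log2 CPM and moving 1 way in every library, which leaves out sparser genes with larger folds. Genes of secreted ligands made up 3 of the 12 largest. Edn3, the endothelin that supports melanoblasts, was at 222 CPM in LOF members and 243 and 126 CPM in members of control replicates 1 and 2, against 16.2, 21.2 and 12.99 CPM in other fibroblasts of the same libraries (3.53, SE 0.13, adjusted p = 1.18e-159). Nrtn, which encodes the neurotrophic factor neurturin, was at 242, 234 and 302 CPM in members and at 22.8, 31.7 and 48.5 CPM in other fibroblasts (2.94, SE 0.11, adjusted p = 7.88e-140). Fgf10, a mesenchymal FGF read by epithelial receptors, was at 139, 179 and 110 CPM in members and 27.6, 24.6 and 18.2 CPM in other fibroblasts (2.59, SE 0.13). For all 3 genes the lowest member sum was above the highest sum of other fibroblasts.

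The promoters of Edn3 and Dclk1 are shown because they were the 2 of the 9 largest rises with a RefSeq promoter entry that held a core Tcf and Lef motif. Edn3 starts on the plus strand of chromosome 2 and its window is chr2:174760369-174760668. Dclk1 starts on the plus strand of chromosome 3 and its window is chr3:55242114-55242413 (GRCm38.p6, RefSeq table, 250 bases before to 50 after the start). Capitals mark the match to CTTTGAA or CTTTGAT on either strand, at −237 in Edn3 and −153 in Dclk1 counted from the start.
Edn3: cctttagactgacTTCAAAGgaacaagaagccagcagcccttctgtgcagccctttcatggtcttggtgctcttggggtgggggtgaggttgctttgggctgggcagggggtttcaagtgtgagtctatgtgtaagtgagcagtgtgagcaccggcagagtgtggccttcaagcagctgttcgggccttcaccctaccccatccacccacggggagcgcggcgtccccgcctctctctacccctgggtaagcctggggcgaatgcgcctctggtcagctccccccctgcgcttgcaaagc
Dclk1: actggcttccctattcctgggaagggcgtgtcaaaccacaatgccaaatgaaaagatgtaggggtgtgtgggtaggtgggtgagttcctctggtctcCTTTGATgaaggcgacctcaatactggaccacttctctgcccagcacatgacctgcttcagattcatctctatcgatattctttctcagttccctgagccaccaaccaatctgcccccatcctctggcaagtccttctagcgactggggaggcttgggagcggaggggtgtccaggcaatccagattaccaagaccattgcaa
The motif stood in 75 of 886 windows of genes higher in members (8.47%), 87 of 1400 of genes lower in members (6.21%) and 688 of 10000 of all genes tested that had an entry (6.88%). A match describes the letters and shows no binding.

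Other signals were raised at lower levels. Bmp7 was at 98.7, 92.2 and 151 CPM in members of LOF and control replicates 1 and 2 and at 12.6, 11.9 and 20.8 CPM in other fibroblasts (2.89, SE 0.15, adjusted p = 1.7e-79). Bmp3, which encodes a BMP family ligand that can oppose the others, was at 23.7, 54.7 and 48.1 CPM in members and 11.0, 10.6 and 5.45 CPM in other fibroblasts (2.15, SE 0.23). The activin subunit gene Inhba (1.05, SE 0.17) and the Wnt enhancer Rspo3 (1.16, SE 0.13) were also higher, while among other ligands Fgf7 (−2.32, SE 0.27), Tgfb2 (−2.56, SE 0.30), Rspo1 (−1.90, SE 0.16) and Wnt2 (−2.28, SE 0.31) were lower. Of 8 Wnt and R-spondin ligand genes tested 1 was higher and 2 lower, and of 11 TGF-beta and activin genes 3 were higher and 3 lower. The shares over all genes tested were 8.94% higher and 13.7% lower. In Tgfb2 the libraries did not move alike: members and other fibroblasts stood at 8.75 and 45.2 CPM in LOF and 1.27 and 34.2 CPM in control replicate 1, but at 16.0 and 16.2 CPM in control replicate 2.

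Of the 21 listed transcription factor genes of dermis, 14 were higher in members and 3 lower, with a median of 1.04 (log2). Prdm1, whose product is a repressor active in dermal papilla precursors, was at 80.0, 109 and 84.7 CPM in members of LOF and control replicates 1 and 2 and at 3.71, 6.37 and 3.86 CPM in other fibroblasts (4.26, SE 0.20, adjusted p = 2.07e-92). Tbx18, a T-box factor gene of the papilla, was at 205, 233 and 341 CPM in members and 40.3, 46.4 and 57.5 CPM in other fibroblasts (2.37, SE 0.11). Trps1, a zinc-finger factor gene needed for normal hair, was at 101, 236 and 98.4 CPM in members and 13.6, 24.7 and 19.3 CPM in other fibroblasts (2.91, SE 0.14). These differences held in each library, which the ranking of large rises required of Trps1.

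Sox11, an HMG-box factor gene of embryonic progenitors, was at 309, 367 and 465 CPM in members and 67.6, 46.7 and 45.5 CPM in other fibroblasts (2.79, SE 0.11), and its relative Sox4 rose by 1.77 (SE 0.08). Twist2, a bHLH factor gene of Wnt-active dermis, was at 776, 1125 and 1348 CPM in members and 308, 535 and 750 CPM in other fibroblasts (1.04, SE 0.07). Snai1, a factor of mesenchymal change, was higher (1.67, SE 0.13) and its relative Snai2 lower (−0.81, SE 0.17). Zeb1 (−1.52, SE 0.15) and the dorsal dermis factor gene En1 (−1.30, SE 0.19) were also lower.

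Hedgehog genes moved both ways, with a median of −0.009 (log2). Of 10 listed genes 4 rose, among them the factor genes Gli1 and Gli2 and the feedback gene Hhip, and 3 fell. Over all genes tested 8.94% were higher and 13.7% lower. Gli1, the usual readout of the pathway, was at 62.5, 68.6 and 61.8 CPM in members of LOF and control replicates 1 and 2, against 9.33, 13.9 and 16.3 CPM in other fibroblasts (2.32, SE 0.18, adjusted p = 1.12e-35). Hhip, a ligand trap, was at 93.7, 63.6 and 29.8 CPM in members and 5.38, 4.62 and 4.61 CPM in other fibroblasts (3.66, SE 0.24).

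The 3 that fell were the co-receptor genes Cdon (−1.34, SE 0.18) and Gas1 (−0.87, SE 0.08) and the repressor-forming factor gene Gli3 (−0.62, SE 0.21). Smo (0.27, SE 0.13), Boc (−0.29, SE 0.21) and Sufu (−0.35, SE 0.31) did not pass the test. Ptch1, a target of the same pathway, helped choose the cells, so these calls are not independent of the gate. Shh, the ligand gene, had no UMI in members.

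Of 19 Wnt response and inhibitor genes tested, 10 were higher in members and 4 lower, with a median of 0.80 (log2). Lef1, the nuclear partner of beta-catenin, was at 201 CPM in LOF members and 332 and 204 CPM in members of control replicates 1 and 2, against 21.7, 51.2 and 41.3 CPM in other fibroblasts (2.72, SE 0.11, adjusted p = 1.33e-116). Wif1, a secreted inhibitor gene, was at 204, 339 and 188 CPM in members and 32.1, 88.6 and 68.8 CPM in other fibroblasts (2.01, SE 0.11). Nkd1, a feedback inhibitor gene, was at 199, 373 and 405 CPM in members and 66.4, 134 and 153 CPM in other fibroblasts (1.45, SE 0.10). Members of the LOF library thus stood above other fibroblasts of all 3 libraries in these 3 genes.

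Dkk1 (1.66, SE 0.13), which blocks the Wnt co-receptor, Axin2 (1.13, SE 0.14), a feedback gene, and the secreted decoy Frzb (3.78, SE 0.32) were also higher. The 4 that fell were the inhibitors Dkk2 (−2.60, SE 0.24), Sfrp1 (−1.80, SE 0.15) and Sfrp5 (−0.70, SE 0.19) and the response gene Sp5 (−0.78, SE 0.21). Ctnnb1 itself was at 381, 359 and 357 CPM in members of LOF and control replicates 1 and 2 and at 191, 172 and 170 CPM in other fibroblasts (1.004, SE 0.09, adjusted p = 1.67e-27). Reads from the 3′ end of Ctnnb1 need not come from the floxed exons, so its level does not check the deletion.

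**Figure D3:**
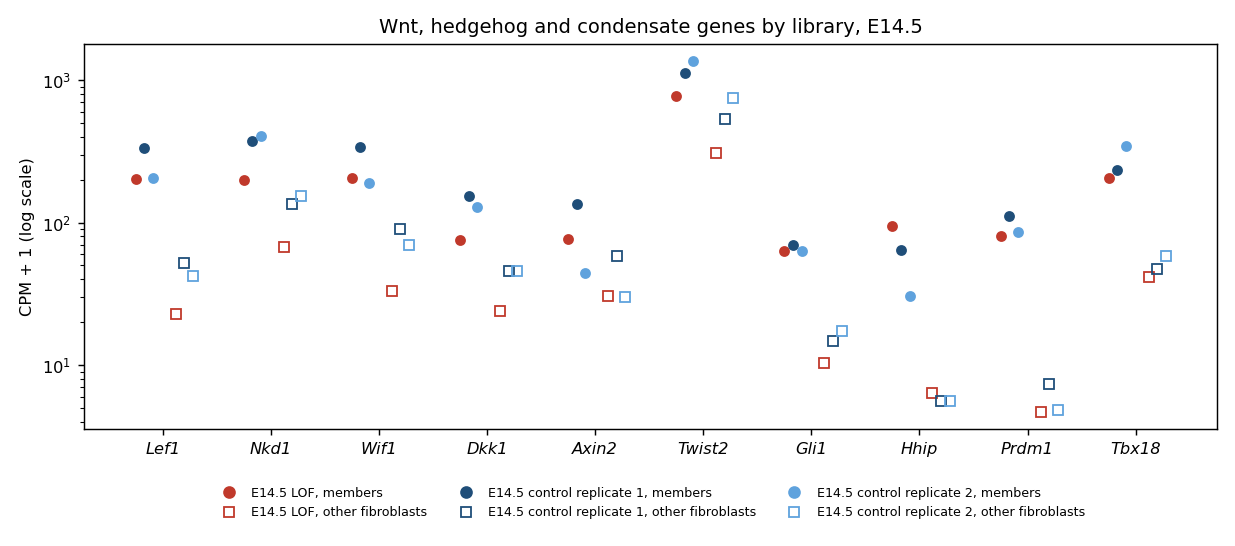
CPM plus 1 on a log axis for Wnt (Lef1, Nkd1, Wif1, Dkk1, Axin2, Twist2), hedgehog (Gli1, Hhip) and condensate (Prdm1, Tbx18) genes. Filled circles are members and open squares other fibroblasts of each E14.5 library; for Lef1 the members sit at 201 to 332 CPM and the other fibroblasts at 21.7 to 51.2 CPM.

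BMP genes moved both ways, with a median of −0.096 (log2), while more FGF genes rose than fell, with a median of 0.69. Of 18 BMP genes tested 6 were higher and 4 lower. Beside the ligands above, the inhibitory Smad7 (2.44, SE 0.15) was higher, with Id1 (0.91, SE 0.10) and Id3 (0.40, SE 0.08) higher and Id2 (−0.52, SE 0.11) lower. The antagonist Grem1 was lower (−2.02, SE 0.36), and Chrdl1 had no UMI in members of any of the 3 libraries, against 12.96, 9.18 and 2.79 CPM in other fibroblasts of LOF and control replicates 1 and 2. Of 14 FGF genes 8 were higher, among them the responders Dusp6, Spry1, Spred1, Etv1 and Etv4. The 2 lower were Fgf7 and Spry2, and the responders Etv5 and Spry4 did not pass the test. The ERK phosphatase gene Dusp6 was at 162, 148 and 158 CPM in members and 51.6, 60.1 and 49.3 CPM in other fibroblasts (1.48, SE 0.12), Fgfr1 rose by 0.77 (SE 0.10), and Spry2, a feedback inhibitor, was lower (−0.44, SE 0.14).

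The other large rises covered surface proteins, enzymes and a kinase. Cd24a was at 472, 792 and 1190.4 CPM in members of LOF and control replicates 1 and 2 and at 82.7, 132 and 197 CPM in other fibroblasts (2.53, SE 0.08, adjusted p = 8.21e-208). Dclk1, which encodes a microtubule-binding kinase, was at 334, 486 and 334 CPM in members and 62.6, 65.8 and 41.1 CPM in other fibroblasts (2.73, SE 0.10). Enpp2, which encodes the enzyme that makes lysophosphatidic acid (3.25, SE 0.14), Cpne5, a calcium-dependent membrane-binding protein gene (3.07, SE 0.12), Cbr3, a carbonyl reductase gene (2.65, SE 0.13), and Nnat, an imprinted gene first known from brain (2.47, SE 0.10), complete the 12.

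Ngfr, the low-affinity neurotrophin receptor gene used to mark condensates, was at 207, 253 and 293 CPM in members and 59.9, 59.1 and 57.4 CPM in other fibroblasts (2.04, SE 0.11), and the heparan sulfate proteoglycan gene Sdc1 rose by 1.95 (SE 0.10). Cxcr4, a chemokine receptor gene, was sparse, at 3.75, 13.98 and 32.0 CPM in members and 1.14, 1.73 and 1.91 CPM in other fibroblasts (3.10, SE 0.44). Its ligand gene Cxcl12 was lower (−2.29, SE 0.14). Of 18 adhesion and migration genes 7 were lower and 4 higher, beside 1842 lower and 1202 higher over all genes, the lower ones including Fn1 (−1.14, SE 0.10), Vcan (−0.65, SE 0.10) and Ncam1 (−0.58, SE 0.13), although Vcan and Ncam1 are listed as condensate genes.

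**Figure D4:**
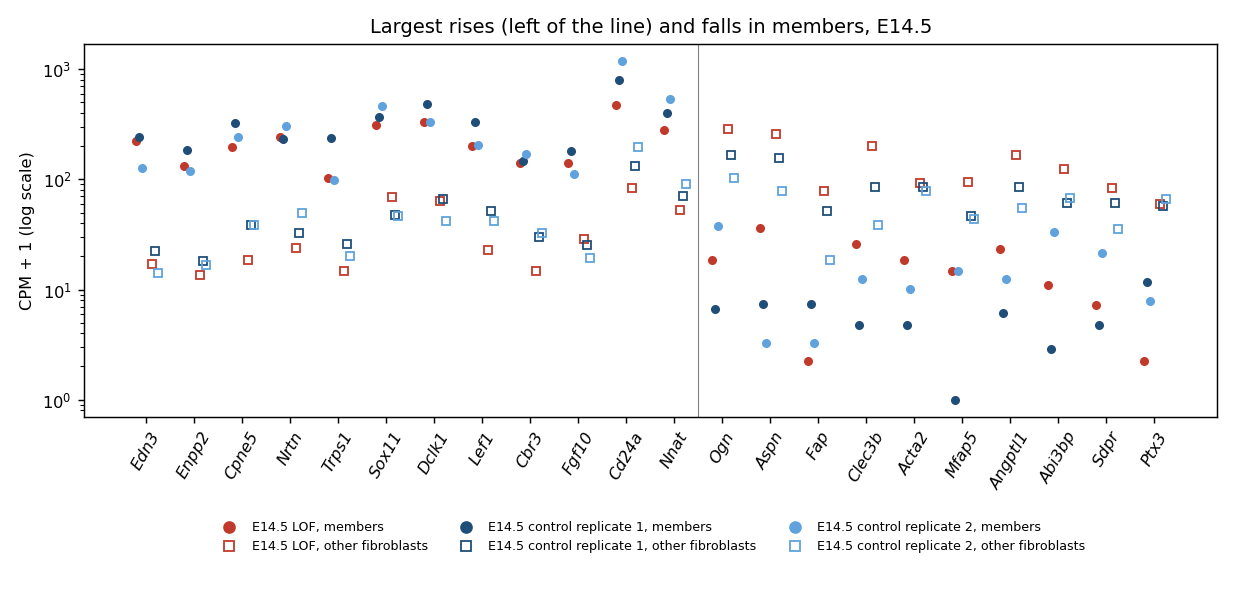
CPM plus 1 on a log axis for the 12 largest rises (left of the line) and 10 largest falls in members at E14.5, among genes averaging 5 or more in log2 CPM and moving 1 way in every library; filled circles are members and open squares other fibroblasts, coloured by library. For each rise every member sum lies above every sum of other fibroblasts, as for Edn3 (126 to 243 against 12.99 to 21.2 CPM).

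The largest falls included matrix, contractile and deep dermal genes. Aspn, a small proteoglycan gene of deep dermis, was at 35.0, 6.36 and 2.29 CPM in members of LOF and control replicates 1 and 2 and at 256, 156 and 77.3 CPM in other fibroblasts (−3.66, SE 0.18, adjusted p = 3.5e-83). Fap, which encodes a surface protease, was at 1.25, 6.36 and 2.29 CPM in members and 77.1, 50.4 and 17.6 CPM in other fibroblasts (−3.65, SE 0.30). Acta2, smooth muscle actin, was at 17.5, 3.81 and 9.16 CPM in members and 92.3, 83.8 and 77.9 CPM in other fibroblasts (−3.32, SE 0.22). In all 3 genes members were lower in every library, which the ranking required of each named fall.

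Ogn, another small proteoglycan gene, was at 17.5, 5.72 and 36.6 CPM in members and 288, 165 and 102 CPM in other fibroblasts (−3.72, SE 0.61, adjusted p = 0.0447), and its call was lost in 5 of 15 other settings. Clec3b (−3.32), Mfap5 (−3.28), Angptl1 (−3.22), Abi3bp (−3.13), the caveolar gene Sdpr (−3.10) and the pentraxin gene Ptx3 (−3.03) complete the 10. Of 10 lower dermis and fascia genes 8 were lower and none higher, with a median of −2.45 (log2). Dlk1, an abundant imprinted gene of that list, was at 1016, 745 and 1257 CPM in members and 3784, 2403 and 3191 CPM in other fibroblasts (−1.69, SE 0.06).

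Matrix genes moved both ways. Among the 20 listed, 10 fell, including the microfibril genes Fbn1 (−1.33, SE 0.14), Fbn2 (−0.56, SE 0.09) and Mfap4 (−0.37, SE 0.10), the fibril-associated Col12a1 (−1.89, SE 0.13), Col5a1 (−0.99, SE 0.10), Dcn (−1.16, SE 0.07), Sparc (−1.25, SE 0.06) and Postn (−1.81, SE 0.10). The 8 that rose were the basement membrane genes Col4a1 (0.81, SE 0.09) and Col4a2 (0.57, SE 0.10), the collagen VI genes Col6a1, Col6a2 and Col6a3 (0.36, 0.32 and 0.52), Eln, which encodes elastin (0.72, SE 0.11), Fbln1 (0.66, SE 0.09) and Fbln2 (0.40, SE 0.11).

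The share of cycling cells was lower in members than in other fibroblasts of each library, by different amounts. The cell cycle inhibitor gene Cdkn1a helped choose the members, so this share is not independent of the gate. A cycling cell was counted by any UMI of Mki67, Top2a or Cenpf after thinning to 5000 UMIs. Such cells made up 39.5% of LOF members (32 of 81, interval 28.8 to 51.0), 29.1% of members of control replicate 1 (43 of 148, interval 21.9 to 37.1) and 23.4% of control replicate 2 (11 of 47, interval 12.3 to 38.0). In other fibroblasts the shares were 46.7%, 57.1% and 40.4%, so the LOF member interval included the share of other LOF fibroblasts. At full depth members stood at 44.9%, 32.7% and 32.0% and other fibroblasts at 52.5%, 63.6% and 42.4%.

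Of 23 proliferation genes 10 fell and 1 rose, with a median of −0.27 (log2). The replication genes Pcna (−0.73, SE 0.19), Rrm2 (−0.61, SE 0.14) and Tyms (−0.52, SE 0.12) were lower, and the exception was Ccnd1, the G1 cyclin gene, at 377, 323 and 309 CPM in members of LOF and control replicates 1 and 2 and at 178, 233 and 202 CPM in other fibroblasts (0.68, SE 0.09). Top2a was at 489.8 CPM in LOF members against 371 CPM in other fibroblasts there, but at 357 against 486 CPM in control replicate 1 and 135 against 158 CPM in control replicate 2. Cdkn1a belongs to the gate. Among 12 other cell cycle inhibitor and p53 target genes, Btg1 (1.34, SE 0.08) and Trp53inp1 (2.02, SE 0.36) were higher and Btg2 and Phlda3 lower, while Cdkn1c (0.06, SE 0.37) did not pass the test.

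The 7 fibroblast markers summed to 4388, 4892 and 4359 CPM in members of LOF and control replicates 1 and 2 and to 4135, 4724 and 5599 CPM in other fibroblasts. The 6 muscle markers summed to 3.18 to 10.0 CPM in members and 33.9 to 44.5 CPM in other fibroblasts, and all 6 were lower. The 6 pericyte markers summed to 31.1 to 48.7 CPM in members against 114 to 152 CPM, with 5 lower. The 6 Schwann markers summed to 1.25 to 6.99 CPM in members against 12.8 to 37.2 CPM, with 3 lower. The 8 keratinocyte markers summed to 36.2 to 78.7 CPM in members and 53.04 to 87.3 CPM in other fibroblasts, with Cldn6 and Krt8 at 0 in members, and none of the 6 tested passed. In LOF members the sum was 78.7 CPM against 70.2 CPM in other fibroblasts. Of the 5 placode markers Shh, Lhx2 and Fgf20 were at 0 in members, while Edar had 3 UMIs in control replicate 1 and Dkk4 had 2 in control replicate 2. The 5 summed to 0, 1.91 and 4.58 CPM in members of LOF and control replicates 1 and 2 and to 1.22, 0.946 and 1.42 CPM in other fibroblasts. Of 4 endothelial markers tested, Kdr was higher in members and Emcn and Esam were lower.

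Of 5 haemoglobin genes, which these cells do not make, 3 were lower in members: Hba-a1 was at 11.2, 13.3 and 50.4 CPM in members and 253, 345 and 516 CPM in other fibroblasts (−4.22, SE 0.14). Their part in other falls was not tested. Of 11 stress genes tested Egr1 and Ier2 were higher and Atf3, Fosb, Ier3 and Jun lower. Of 9 retinoic acid genes 1 was higher, the receptor gene Rarg, and 2 were lower, among them the binding protein gene Crabp2. Cells called doublets, 10, 11 and 7 of the members of LOF and control replicates 1 and 2, were kept.

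Much of the other fibroblasts lies outside the Wnt-active upper dermis, so members were also set against other fibroblasts with at least 2 of the 6 genes Axin2, Lef1, Nkd1, Apcdd1, Sp5 and Wif1 detected. By this count 79.8% of LOF members and 97.6% and 88.0% of members of control replicates 1 and 2 were Wnt-active, against 20.8%, 55.3% and 44.98% of other fibroblasts. After thinning to 5000 UMIs the shares were 64.2%, 89.9% and 76.6% of members and 15.3%, 40.0% and 35.4% of other fibroblasts. Of 12012 genes tested against the Wnt-active cells, 1012 (8.42%) were higher and 1252 (10.4%) lower. This comparison was added after the data were seen, and it shares the members with the first.

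Of the 1202 rises against all other fibroblasts, 880 (73.2%) were also called against Wnt-active ones, which is 87.0% of the rises in that comparison. For falls, 1010 genes were called in both, 54.8% and 80.7% of the lists. Against Wnt-active cells 2 of 10 lower dermis genes, Aspn and Dlk1, were lower, and Plac8 was higher. Of proliferation genes 19 of 23 were lower and Ccnd1 was again higher, at a median of −0.67 (log2). Wnt response genes outside the 6 that chose the cells had 3 of 12 higher and 3 lower. Prdm1 (3.39), Edn3, Tbx18 (2.45) and Fgf10 (3.06) stayed higher.

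Loss of beta-catenin in Pdgfra-lineage cells was compared in members with 1 LOF and 2 control libraries at E14.5. Of 8525 genes tested, 10 (0.117%) were higher and 1 (0.0117%) lower in LOF members (edgeR quasi-likelihood test, Benjamini-Hochberg adjustment). The rises were Esr1 (5.37, SE 0.81, adjusted p = 1.13e-07) and eGFP (3.41, SE 0.71, adjusted p = 0.0138), the macrophage genes Lyz2, Tyrobp, Pf4 and Fcer1g, the mast cell protease gene Cma1, and Peg10, Gfra2 and Col6a6. The ribosomal protein gene Rpl29 was lower. Only 3 of the 89 LOF members, and 0 control members, held 3 or more macrophage and mast cell UMIs. The 4 mast cell markers summed to 101 CPM in LOF members and 3.81 and 16.0 CPM in members of control replicates 1 and 2. The 6 macrophage markers summed to 114 CPM in LOF members and 1.91 and 20.6 CPM in members of control replicates 1 and 2, against 34.3, 18.8 and 46.1 CPM in other fibroblasts. Beyond the refit given next, the part of macrophage and mast cell UMIs in the other differences was not tested. Without cells holding at least 3 macrophage and mast cell UMIs, 3 genes were higher and 1 lower.

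None of the 25 condensate, 10 hedgehog or 15 Wnt response genes tested passed the test between LOF and control members. Their median log2 differences were −0.59, −0.10 and −0.49, against −0.02 over all genes. The gate admitted only cells with UMIs of condensate genes, in LOF and controls alike. Cells without them were left out, so this comparison cannot show whether LOF fibroblasts kept the program. The difference was −0.49 (SE 0.62) for Lef1 and −0.01 (SE 0.62) for Ctnnb1, with 1 LOF library. Prdm1 was at 80.0 CPM in LOF members and 97.0 ± 17.4 CPM in control members (SD, n = 2), and Tbx18 at 205 and 287 ± 76.3 CPM.

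The member effect, the signed log2 difference of members minus other fibroblasts, was also compared between LOF and controls. Of 14180 genes, the effect was higher in LOF for 14 (0.0987%) and lower for 9 (0.0635%), and a higher signed effect can be a smaller fall. DESeq2 called 1 gene and the fit without library as a block called 0 (134 at an unadjusted p under 0.05). The condensate factors Prdm1 (0.22, SE 0.38) and Tbx18 (−0.06, SE 0.25) and the Wnt genes Lef1 (0.69, adjusted p = 0.683) and Wif1 (0.93, adjusted p = 0.0934) did not pass. In other fibroblasts Lef1 was at 21.7 CPM in LOF, against 51.2 and 41.3 CPM in the controls, while members of LOF, at 201 CPM, lay next to the lower control member value of 204 CPM.

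The eGFP reporter gave the share of members with an eGFP UMI. This is the recombined share only if all cells carry the reporter and it is detected. tdTomato, the unswitched form, was found in 25.7%, 22.9% and 60.7% of keratinocyte-gated cells of E14.5 LOF and E14.5 control replicates 1 and 2. At E13.5 the shares were 98.0%, 98.8% and 94.3% in LOF and control replicates 1 and 2. The cause was not tested. In E14.5 LOF 62 of 89 members had an eGFP UMI (69.7%, exact binomial 95% interval 59.0 to 79.0), against 58.3% of other fibroblasts (2600 of 4462, interval 56.8 to 59.7). In control replicate 1 the shares were 5.45% of members and 5.83% of other fibroblasts, and in control replicate 2 they were 52.0% and 45.4%. Keratinocyte-gated cells of these libraries, at 4.03%, 2.82% and 0.956%, give the level in cells outside the Cre lineage. Macrophage-gated cells were at 12.6%, 5.63% and 3.86%, but that gate set no collagen limit and could admit cells with fibroblast transcripts. After thinning to 5000 UMIs the LOF shares were 65.4% and 55.5%.

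eGFP reports recombination of its own allele and not of the floxed beta-catenin alleles. Within LOF members, Lef1 was at 231 CPM in the 62 cells with eGFP (exact Poisson interval 193 to 274) and 129 CPM in the 27 without (interval 86.8 to 184). Ctnnb1 was at 368 CPM (interval 320 to 422) in members with eGFP and 412 CPM (interval 334 to 503) in those without, from 1 library and without a test. Prdm1 ran the other way from Lef1, at 61.7 and 124 CPM.

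**Figure D5:**
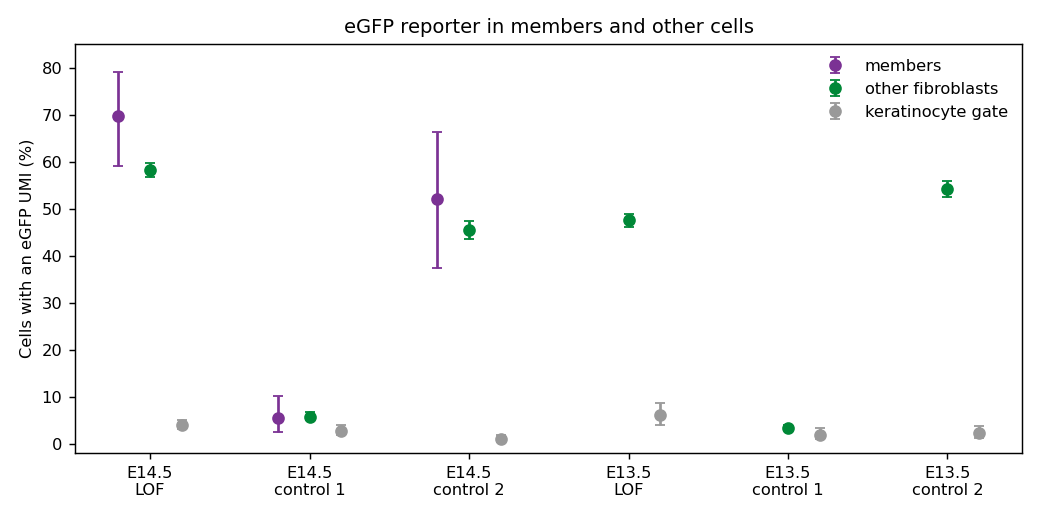
Percent of cells with an eGFP UMI among members, other fibroblasts and keratinocyte-gated cells of each library, with exact binomial 95% intervals; member values are drawn where a library held at least 20 members. E14.5 LOF members reach 69.7%, and control replicate 2 stands near the LOF libraries at both stages.

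Members with a Sox2 UMI were set against members without one in the same libraries, a split chosen after the data were seen. Of 6191 genes tested, 64 (1.03%) were higher and 39 (0.63%) lower in the 164 members with Sox2 than in the 140 without (edgeR quasi-likelihood test, Benjamini-Hochberg adjustment, library as a block). Sox2 is a gene of the gate, so members without it were admitted by Foxd1 or Sox18, and the split is not independent of the rule. The balance turned with the library left out, with 23 higher and 53 lower without LOF. The counts were 26 and 8 without control replicate 1 and 70 and 39 without control replicate 2. No gene passed without the block (171 at an unadjusted p under 0.05, edgeR). Edn3 (1.59, SE 0.17), Sdc1 (1.51, SE 0.16), Bmp7 (1.67, SE 0.24), Prdm1 (1.39, SE 0.22) and Tbx18 (1.13, SE 0.16) were higher in members with Sox2. Elovl6, a fatty acid elongase gene, was at 160.4, 151 and 105 CPM in members with Sox2 of LOF and control replicates 1 and 2 and at 42.7, 47.1 and 33.6 CPM in members without (1.76, SE 0.22, adjusted p = 0.000216). In this gene the 2 sets of sums did not overlap.

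Col8a1, a network collagen gene, was at 2.23, 7.62 and 7.74 CPM in members with Sox2 and 22.8, 70.0 and 56.0 CPM in members without (−3.06, SE 0.41, adjusted p = 0.000504). Gas1 (−1.11, SE 0.14), Dkk1 (−1.30, SE 0.23) and Cxcl14, a chemokine gene (−1.13, SE 0.18), were also lower in members with Sox2. Ly6d (2.18), Grin2a (1.74), Hs3st3b1 (1.67), S1pr3 (−2.17), Maf (−1.76), Abca9 (−1.70) and Cav1 (−1.60) complete the genes named by size. Ly6d passed in 3 and S1pr3 in 2 of 5 other settings, and Abca9 in 1 of 4. Grin2a and Hs3st3b1 passed in 1 of 3 and Maf and Cav1 in 1 of 2. In control replicate 2, Grin2a was at 23.2 CPM with Sox2 and 22.4 CPM without, and Ly6d at 58.1 and 50.4 CPM. Of the genes of the gate, Cdkn1a was detected in 134 of 164 members with Sox2 and 76 of 140 without, and Bmp4 in 142 and 81, as a description.

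The 7 members at E13.5 are too few for a sum. All 6 in control replicate 1 had exactly 2 of the 5 genes, with Foxd1 in 5 and Sox18 in 1, and the 1 in control replicate 2 had Foxd1 and 3 of the 5 genes. None had a Sox2 UMI. Since no E13.5 library reached 20 members, member differences at E13.5 and between stages were not fitted.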

How the data were processed

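The deposited matrices hold raw UMI counts per gene and barcode for 6 libraries and 28000 genes, with rows for eGFP and tdTomato. Per the submitters' processing notes, Cell Ranger and Seurat were used with mm10 (GRCm38), and no versions are given there. The gate was applied to these counts, and UMIs were summed per library over members and over other fibroblasts. edgeR 4.0.16 in R 4.3.3 (robust quasi-likelihood fit, TMM factors, filterByExpr) tested the sums in libraries with at least 20 members. The 15 genes of the gate were left out of the genes tested. DESeq2 1.42.0 was an alternative. Members, lists and comparisons were chosen with earlier results of these data known. Named genes were the largest changes past the test, up to 12 rises and 10 falls for members against other fibroblasts and 5 of each elsewhere, averaging 5 or more in log2 CPM and moving 1 way in every library, then listed genes; predicted, ribosomal protein, mitochondrial and haemoglobin genes were left out. Other genes named were chosen after their values were seen. Doublets were scored against simulated pairs of cells and marked at 0.8% per 1000 cells, not removed. Sums over members and other fibroblasts of a library come from the same pool of embryos, so library is the block. On simulated counts the fit of members against other fibroblasts recovered 100% of the 100 genes changed by 2-fold among 13452 genes. In each simulation the changed genes were drawn only from the more highly expressed ones, so recovery of sparse genes was not measured. The fit of the LOF difference in member effect recovered 43% at 2-fold. The fit of LOF against control members recovered 74% at 2-fold and 99% at 4-fold. Simulated libraries shared the same mean per gene and the spread of the blocked fit. Spread between libraries was left out, so the recovery for LOF against control members can overstate what that test reaches. Planned tests at E13.5 and between stages were not run, since no E13.5 library held enough members. Python 3.11.15 with scikit-learn 1.9.0 and matplotlib 3.10.9 made the cell tables and figures. Some genes are not reported here.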

Additional observations from a re-analysis of the deposited data

Results flagged for a closer look

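The member effect (members against other fibroblasts of the same library) differed between LOF and control for 23 genes, by a test of the difference in edgeR with 1 LOF and 2 control libraries. DESeq2 called 1 gene and the fit without library as a block 0, and both ended all 9 calls named here. Genes named by size whose signed effect was higher in LOF were Lpl, a lipase gene (2.16, log2), Hmga2, a chromatin protein gene of embryonic cells (1.13), Penk, which encodes an enkephalin precursor (0.91), and Crabp1, a retinoic acid binding protein gene (0.87). Those whose signed effect was lower in LOF were Fst, which encodes the activin and BMP binder follistatin (−1.60), Ltbp1, which encodes a binder of latent TGF-beta (−1.52), Nrp2, a semaphorin and VEGF co-receptor gene (−1.35), Itih5, a hyaluronan-binding protein gene (−1.16), and the cell cycle inhibitor gene Cdkn1c (−0.94).

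Lpl was lower in members of every library and least so in LOF, at 44.98 CPM in members and 65.55 CPM in other fibroblasts of LOF, 8.26 and 64.7 CPM in control replicate 1 and 9.16 and 30.2 CPM in control replicate 2, and its difference reversed in members with Sox2 (−0.26). Fst was at 106 CPM in LOF members and 95.9 CPM in other fibroblasts there, at 176 and 46.8 CPM in control replicate 1 and at 66.4 and 26.5 CPM in control replicate 2. Hmga2 was at 159 and 122.5 CPM in LOF, 90.25 and 144 CPM in control replicate 1 and 57.2 and 110.3 CPM in control replicate 2. Most of the contrast in Fst lay in other fibroblasts, which were higher in LOF, and most of that in Hmga2 in members.

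The other genes with a higher signed effect in LOF included the macrophage genes Lyz2, Tyrobp, Pf4 and Fcer1g and the mast cell genes Cma1, Cpa3, Tpsb2 and Hdc. Lyz2 was at 84.96 CPM in LOF members and 3.68 CPM in other fibroblasts there, and at 1.27 and 2.29 CPM in members of control replicates 1 and 2. Without cells holding at least 3 macrophage and mast cell UMIs a refit called 14 genes, 6 higher and 8 lower, with 8 of the 9 named calls kept. Only 3 of the 89 LOF members were such cells.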

How the results depend on the processing

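For members against other fibroblasts, 3044 genes passed in either direction. Leaving out 1 library gave 1347 to 2639, the lowest without control replicate 1, DESeq2 gave 1572, and the fit without library as a replicate block gave 389. No gene passed in the opposite direction in any of these, and Lix1 did so against Wnt-active cells. Among the named genes the fit without the block or the Wnt-active set ended the calls of Clec3b, Abi3bp and Mfap5, DESeq2 that of Mfap5, and a comparator matched on total UMIs that of Abi3bp; Sdpr was lost against Wnt-active cells.

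The 23 differences of the member effect between LOF and control became 0 without the block (134 at an unadjusted p under 0.05), 1 with DESeq2 and 14 without cells holding macrophage and mast cell UMIs. They became 49 with a comparator matched on total UMIs, 69 without TMM, 57 without the low-count filter, 41 without called doublets, 49 after thinning and 87 in members with Sox2. In that set Lpl reversed to −0.26. The 11 calls between LOF and control members became 1 with DESeq2, 6 without TMM, 3 without doublets, 5 after thinning, 3 in members with Sox2 and 4 without cells holding immune UMIs; no library could be left out of either. For members with against without Sox2, 103 calls became 34 to 109 on leaving out 1 library, the lowest without control replicate 1, 31 with DESeq2 and 0 without the block (171 at an unadjusted p under 0.05; 103 with the main edgeR fit).

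Member shares moved with depth and limits. At 3000 UMIs they were 0.966% in E14.5 LOF and 2.70% and 0.781% in the E14.5 controls; with at least 3 of the 5 genes 1.32%, 3.83% and 1.27%; at 30 collagen UMIs 3.91% and 0.531% in E14.5 control replicates 1 and 2. At 5000 UMIs they were 1.499% in LOF and 3.49% in control replicate 1. In E13.5 control replicate 1 they were 0.0464% at 5000 UMIs and 0 at 3000 UMIs or with at least 3 genes; in replicate 2 they were 0 in 3 settings. Among other E14.5 LOF fibroblasts, 5000 UMIs gave 55.5% with eGFP and 2.77% with tdTomato. The causes were not tested.

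No paired analysis was possible for the stage comparison because no E13.5 library held enough members; library was the block elsewhere. Few members limit rare genes: 1 UMI is worth 0.636 to 2.29 CPM.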
